A study of Mus musculus with 4 samples.

Results

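The Cwc22 locus of mouse chromosome 2 held 29 of the 4012 places that the authors called as peaks of DNA pulled down with Tbx20. How the inputs entered the calling is not given in the sources used here. The 29 peaks were chosen by position, in a window of 250 kb. Every peak whose midpoint lay between 77650000 and 77900000 of chromosome 2 on mm9 was taken. The choice came out of the same list, because this window holds the run with the most peaks, so the number and spacing of the 29 peaks are given as a description with no test.

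The series located Tbx20, carried as a fusion with GFP (green fluorescent protein), in hearts of CD1 mice, an outbred stock, by chromatin immunoprecipitation and sequencing (ChIP-seq). The immunoprecipitated chromatin came from whole hearts at 2 months of age and was pulled down with a goat antibody to GFP. The 3 input samples, unprecipitated DNA from CD1 hearts, are labelled with embryonic ages: the first and second are given as E11.5, the third as E9.5. How the tagged protein was introduced into the mice is not given in the sources used here. The values are the authors' peak list for the 1 immunoprecipitate, so there is no replicate, no error between animals and no known read depth.

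Tbx20 is a T-box transcription factor of heart muscle, which binds DNA through a short sequence shared by its family. Cwc22 is a general splicing protein. It joins the spliceosome and helps to place the exon junction complex on spliced messenger RNA. A segment of chromosome 2 that carries Cwc22 is known to be repeated in some mice, wild and outbred ones among them, and present in a single copy in the reference strain. Sequencing reads from copies that a reference lacks are placed on the copy it has, in an immunoprecipitate and in its input alike. Neither the copy number in these mice nor the reads of the inputs were used here, so binding of Tbx20 and extra copies of the DNA cannot be told apart from this list.

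Cwc22 lies on the minus strand, and in the order of RefSeq genes on GRCm38.p6 its neighbours are Zfp385b, which codes for a zinc finger protein, and the pseudogene Gm13726. RefSeq gives it a length of 65.2 kb and 7 curated transcripts. The gene is placed below only by an approximate interval on mm9, 77.73 to 77.79 Mb, because no mm9 annotation was used and positions were not carried between builds. Exons, introns and untranslated regions were therefore not assigned to peaks. The sequence under the peaks was not searched for T-box matches. The 250 bases before the RefSeq start of Cwc22 are shown instead. They lie at chr2:77946357-77946606 of GRCm38.p6, a position that cannot be compared with the mm9 positions below, and are written 5′ to 3′ on the minus strand.

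Cwc22: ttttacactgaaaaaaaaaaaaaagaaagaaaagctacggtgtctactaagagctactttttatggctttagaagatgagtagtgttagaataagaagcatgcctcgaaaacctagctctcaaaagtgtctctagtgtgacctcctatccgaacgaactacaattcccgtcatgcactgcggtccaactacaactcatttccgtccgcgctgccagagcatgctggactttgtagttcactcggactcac

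Capitals would mark a T-box match, and there were none. The letters searched on both strands were AGGTGT, its overlapping neighbour GGTGTG, and the longer AGGTGTGA, which contains both of the shorter ones. Of the 32851 promoter windows of the same length in the RefSeq table, 11.8% held AGGTGT, 16.3% held GGTGTG and 1.12% held AGGTGTGA on either strand. The 250 bases had a GC content of 42.8% and held 10 CpG pairs, against medians of 52.4% and 6 over all these windows. Whether any of the 29 peaks covers these bases was not determined.

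The 29 peaks formed 1 run of 152 kb, from 77707842 to 77859882, with no other peak of the list within 500 kb of either end. On the lower side the nearest peak lay 1077 kb away, from 76630281 to 76630474, with a score of 19.2. On the higher side the nearest lay 852 kb away, from 78712157 to 78712535, and scored 6.61. Another peak beside it, from 78714151 to 78714514, scored 52.6. The bounds of the window therefore decided nothing, since no peak lay near them. The score is the authors' own value per peak, which their note calls a normalized number of reads in the peak. What it was normalized by is not given, so a low score is not read here as few reads. The score is used only to describe and rank peaks within the list.

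These peaks were 0.723% of the list and 8.98% of the 323 peaks on chromosome 2. They covered 18.6 kb, which is 20.1% of all the sequence under peaks on that chromosome and 1.81% of that in the whole list. When the genome was divided into windows of the same 250 kb, counted from its lower bound, 2787 windows held a peak and 1936 of these held exactly 1. The fullest of the others, on chromosome 9, held 9. These windows were laid out from the Cwc22 window, so their edges could cut other runs of peaks. With midpoints at most 50 kb apart, the longest other run, also on chromosome 9, held 14 peaks over 182 kb.

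The peaks were broad. Widths ran from 135 to 1802 bp around a median of 602 bp, with quartiles at 311 and 822 bp. Over all 4012 peaks the median was 226 bp, so the median of the window was 2.66 times that of the list. In total 16 of the 29 were at least 500 bp wide, against 4.46% of the list, and 22 of the 29 were wider than the list's upper quartile of 306 bp. The 3 widest peaks of the list were all here. No peak outside the window was wider than 1028 bp. Both 500 bp and the score of 5 used below were set after the values were seen.

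Scores were low. The median was 4.23, with an interquartile range of 3.65 to 5.64 and extremes of 3.00 and 13.8. Over the whole list the median was 22.7, which is 5.37 times higher. All 29 peaks scored below the list's median, and 27 of them scored below its lower quartile of 11.3. A score under 5 was given to 19 of the 29, against 4.59% of the list. The 2 lowest scores of all 4012 peaks, 3.00 and 3.01, were both in the window. Of the 29 peaks, 14 scored under 4, against 2.09% of the list. No peak of the list scored under 3.00, so many of these peaks stood close to the lowest scores listed. Whether the score decided which peaks were accepted is not known.

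**Figure D1:**
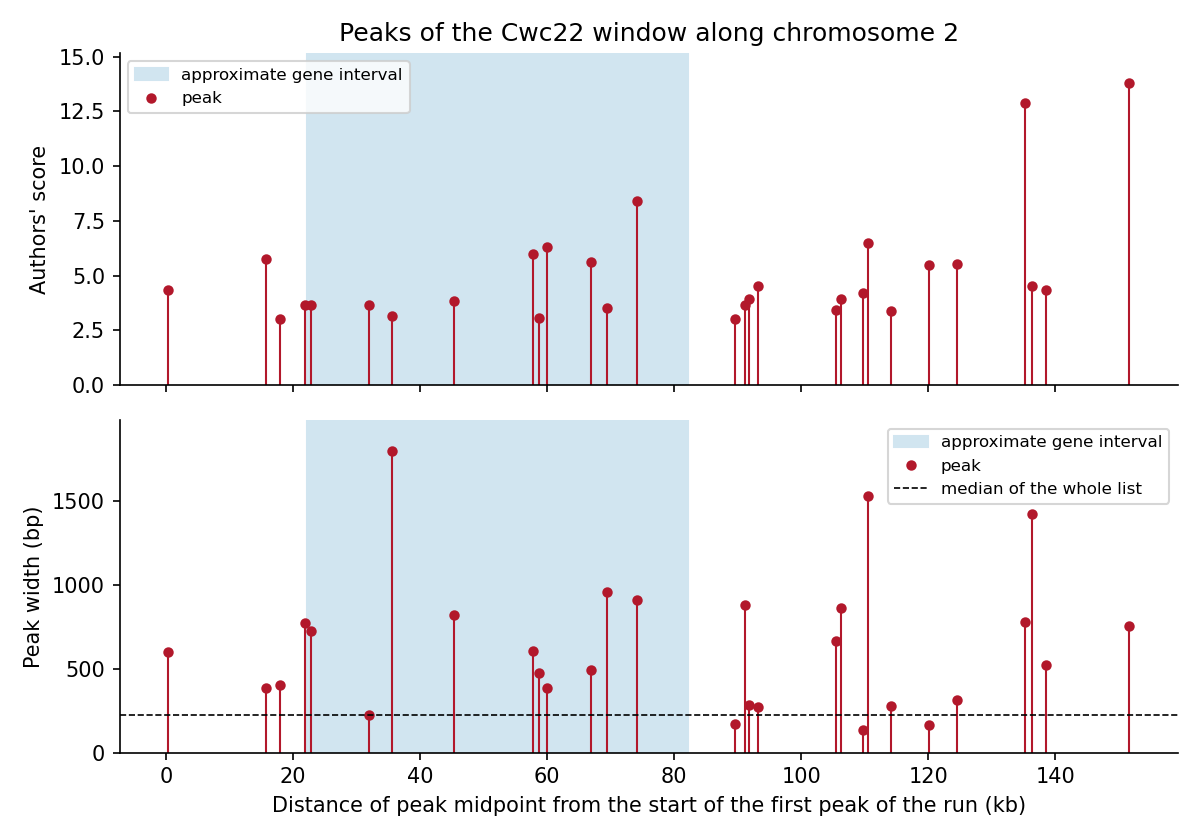
Authors' score (upper) and width in bp (lower) of each of the 29 peaks, by distance of its midpoint from the start of the first peak in kb. The shaded band is the approximate gene interval and the dashed line is the median width of the whole list, 226 bp. Peaks lie on both sides of the band, 25 of 29 are wider than the line, and the 2 highest scores, 12.9 and 13.8, stand toward the right end.

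Many of these peaks were both broad and low in score, although width and score were only loosely related within the window, as given below. In total 21 peaks of the list, 0.523%, were at least 500 bp wide and scored under 5, and 11 of these 21 lay in the window. The other 10 were on chromosomes 2, 4, 6, 7, 11, 18 and X, with at most 2 on any of them. Those on chromosomes 11, 18 and 4 lay near the low end of their chromosomes. The 2 on chromosome 11 lay between 3026933 and 3050380, that on chromosome 18 began at 3009475 and that on chromosome 4 at 3010094. Those on chromosome 6 lay between 36354867 and 72228057, that on chromosome 7 began at 38982828, and those on X lay between 121303121 and 166425744. That on chromosome 2 lay from 70893204 to 70893972 and scored 3.78. Among peaks of at least 500 bp, the 16 of the window had a median score of 4.13, and the 163 elsewhere had a median of 30.8 with an interquartile range of 13.0 to 47.5. Among peaks with a score under 5, the 19 of the window had a median width of 602 bp, and the 165 elsewhere had a median of 216 bp with an interquartile range of 160 to 288 bp. Low-scoring peaks elsewhere were thus about as wide as the list in general, and broad peaks elsewhere had a median score above that of the list.

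**Figure D2:**
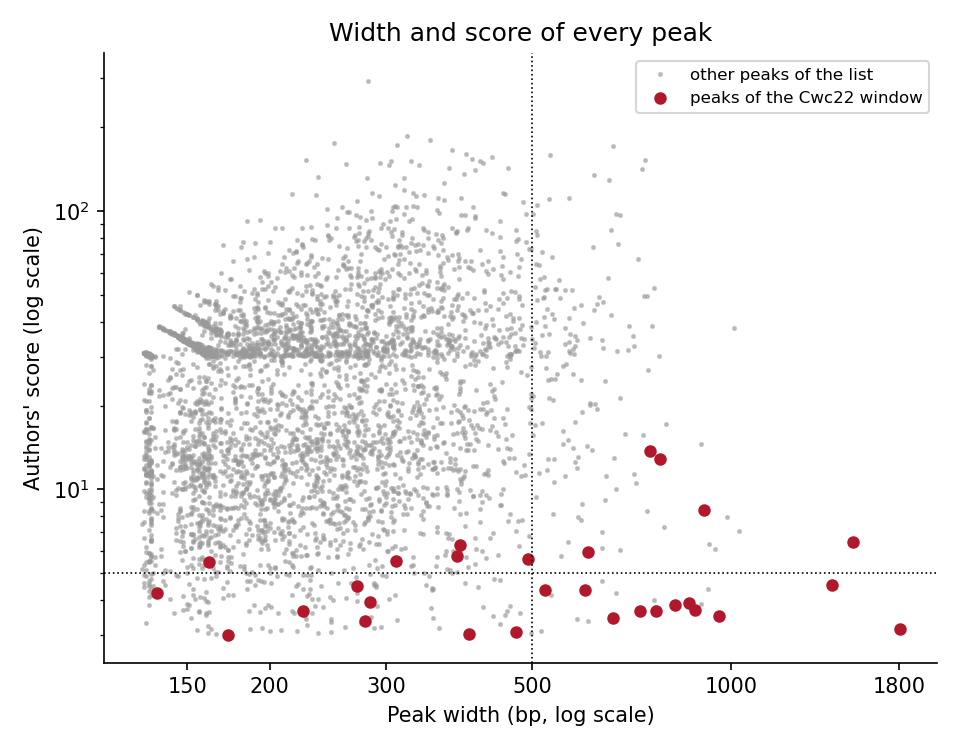
Width in bp against the authors' score for all 4012 peaks, both on log scales, with the 29 peaks of the window in red. Dotted lines mark 500 bp and a score of 5, and 11 of the 21 peaks at the lower right are red.

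Within the window, width and score were only loosely related. Across the 29 peaks, which share 1 library and are not independent, Pearson's r was 0.10 and Spearman's rho was 0.12. Both measures gave 0.17 over the whole list. Scores were higher toward the upper end of the run, with r = 0.43 and rho = 0.37 against distance from its first peak. Without the 2 highest-scoring peaks these fell to r = 0.14 and rho = 0.23 over 27 peaks, so the relation rests largely on those 2. Width did not follow position, with r = 0.01 and rho = -0.003.

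Of the 29 peaks, 4 had midpoints below the gene interval, 10 inside it and 15 above it. Because Cwc22 is on the minus strand, the side above the interval is the side its transcription starts from. The gene interval held 1.67 peaks per 10 kb, and the remaining 92.04 kb of the run held 2.06 per 10 kb. Peaks covered 12.5% of the gene interval and 12.0% of the rest of the run. The coverage was therefore close to even between the gene and its surroundings, and the run reached 69.9 kb beyond its upper bound.

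Below the interval, the run opened with a peak from 77707842 to 77708444, 602 bp wide with a score of 4.34, which stood 15.4 kb from the next. The following peaks were narrower. One from 77723388 to 77723773 measured 385 bp and scored 5.74, and one from 77725671 to 77726072 measured 401 bp and scored 3.01, the second lowest of the list. The last of the 4, from 77729340 to 77730111, had its midpoint just below the bound of the interval and overlapped it. It was 771 bp wide and scored 3.67, close to the 3.65 of the first peak placed inside.

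The interval held the widest peak of all, from 77742541 to 77744343, which measured 1802 bp and scored 3.14. It also held the peak listed earliest among the 29, from 77781574 to 77782486, with a width of 912 bp and a score of 8.41. That peak was the highest-scoring of the 10. The peak from 77776864 to 77777823 was 959 bp wide and scored 3.51. Breadth and score did not go together in these 3.

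Toward the lower bound of the interval, the peak from 77730372 to 77731099 was 727 bp wide and scored 3.65. It was followed by the narrowest of the 10, from 77739755 to 77739980, at 225 bp and 3.66. Next to the widest peak came one from 77752820 to 77753642, of 822 bp and a score of 3.86. These peaks of the lower part of the gene differed several times in width while their scores stayed between 3.14 and 3.86.

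A group of 3 lay within 3 kb in the upper part of the interval. The first ran from 77765277 to 77765884, with 607 bp and a score of 5.97. The second ran from 77766330 to 77766803, with 473 bp and a score of 3.08, and the third from 77767611 to 77767999, with 388 bp and 6.31. The remaining peak of the 10, from 77774436 to 77774928, was 492 bp wide and scored 5.64. In this part of the gene 4 of the 6 peaks scored above 5, and in the lower part none of the 4 did, a division made after the values were seen.

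Inside the interval the median width was 667 bp (range 225 to 1802 bp) and outside it 523 bp (range 135 to 1529 bp). Median scores were 3.76 (range 3.08 to 8.41) inside and 4.34 (range 3.00 to 13.8) outside. The ranges overlapped almost entirely. The order of the widths turned with the bounds of the interval: with 10 kb added on each side, 16 peaks fell inside and the medians were 549.5 bp inside and 602 bp outside. Scores were 3.67 inside and 4.51 outside there. The order of the scores turned when only peaks scoring at least 4 were kept, with medians of 6.14 over the 4 peaks inside and 5.50 over those outside, so neither order was stable.

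Above the interval, the first peak came after a gap of 15.4 kb and was the lowest-scoring of the whole list, from 77797321 to 77797494, with 173 bp and a score of 3.00. It opened a group of 4 peaks within 4 kb. The others ran from 77798523 to 77799405 with 882 bp and a score of 3.68, from 77799460 to 77799744 with 284 bp and 3.93, and from 77800850 to 77801121 with 271 bp and 4.51. The scores of this group all lay under 5, and its widths ran from 173 to 882 bp.

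A further group began 12.3 kb on. Its first peaks lay 52 bp apart. One ran from 77812990 to 77813653 with 663 bp and a score of 3.45. The other ran from 77813705 to 77814569 with 864 bp and 3.91. The next pair joined the narrowest peak of the window to the second widest of the list. The narrow one ran from 77817462 to 77817597, with 135 bp and a score of 4.23, and the broad one began 49 bp after it, from 77817646 to 77819175, with 1529 bp and a score of 6.48. The group ended with a peak from 77821826 to 77822105 of 279 bp, which scored 3.36.

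Between this group and the end of the run stood a pair of small peaks with nearly equal scores. That from 77827824 to 77827986 measured 162 bp and scored 5.50, and that from 77832215 to 77832526 measured 311 bp and scored 5.52.

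The highest scores of the window were at its upper end. The peak from 77842611 to 77843391 was 780 bp wide and scored 12.9, and it was followed 31 bp later by the third widest of the list, from 77843422 to 77844846, with 1424 bp and a score of 4.55. After a peak from 77846078 to 77846601 of 523 bp and 4.35, the run closed with a peak from 77859127 to 77859882, 755 bp wide, with the highest score of the 29 at 13.8. The peaks at 12.9 and 13.8 were the only ones of the window above the list's lower quartile of 11.3. Their midpoints lay 53.0 and 69.5 kb above the gene interval, outside the gene as placed here.

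The spacing was uneven. Neighbouring midpoints were a median of 3.56 kb apart, and the 28 gaps ran from 0.638 to 15.4 kb. Over the list, 11.4% of peaks had another midpoint within 10 kb, and 27 of the 29 did. Under 2 kb separated 9 of the 28 neighbouring pairs, and more than 10 kb separated 6. In 4 pairs the end of one peak and the start of the next were at most 100 bp apart, with the closest 31 bp apart. Joining peaks within 500 bp left 23 regions, with the same median width of 602 bp. In steps of 25 kb along the run, the 6 full steps held 3 to 7 peaks each and peaks covered 6.44 to 15.8% of each step.

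The order of the deposited list gave these peaks a different standing from their scores. The list starts with high scores and a ceiling can be drawn over it, taken at every place as the highest score found there or later. Scores within 2% of that ceiling were found at 36.1% of the list and at 0 of the 29. The 29 reached 4.30 to 25.4% of it, with a median of 8.59%, against a median of 48.7% for the whole list. Less than 20% of the ceiling was reached by 27 of the 29, against 13.8% of the list. The ceiling was still 30.3 at place 3808, the last of the 29. Low scores alone therefore put most of these peaks far below it, and these shares largely restate the scores.

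Despite their scores, the peaks came early. Their median place was 861 of 4012, and 19 of the 29 stood among the first 1003 places, which hold 25% of all peaks by construction. The first of them, at place 249, scored 8.41, and the peaks listed directly before and after it scored 20.5 and 93.6. At place 729 the peak from 77729340 to 77730111 scored 3.67, and the peaks listed just before and just after it both scored 57.9. The highest-scoring peak of the window, at place 633 with 13.8, stood between neighbours in the list that both scored 62.0. Not all such neighbours scored high. At place 1716, where the peak of the window scored 3.66, they scored 16.4 and 7.57. Among these first 1003 places, the 19 peaks of the window had a median score of 4.34 and a median width of 727 bp, whereas the other 984 had medians of 38.1 and 295 bp. Width was greater earlier in the list among the 29 (rho = -0.51) and over the list as a whole (rho = -0.44), and score, which fell along the list in general (rho = -0.38), hardly varied with place in the window (rho = -0.05). What the authors ordered the list by is not given in the sources used here.

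**Figure D3:**
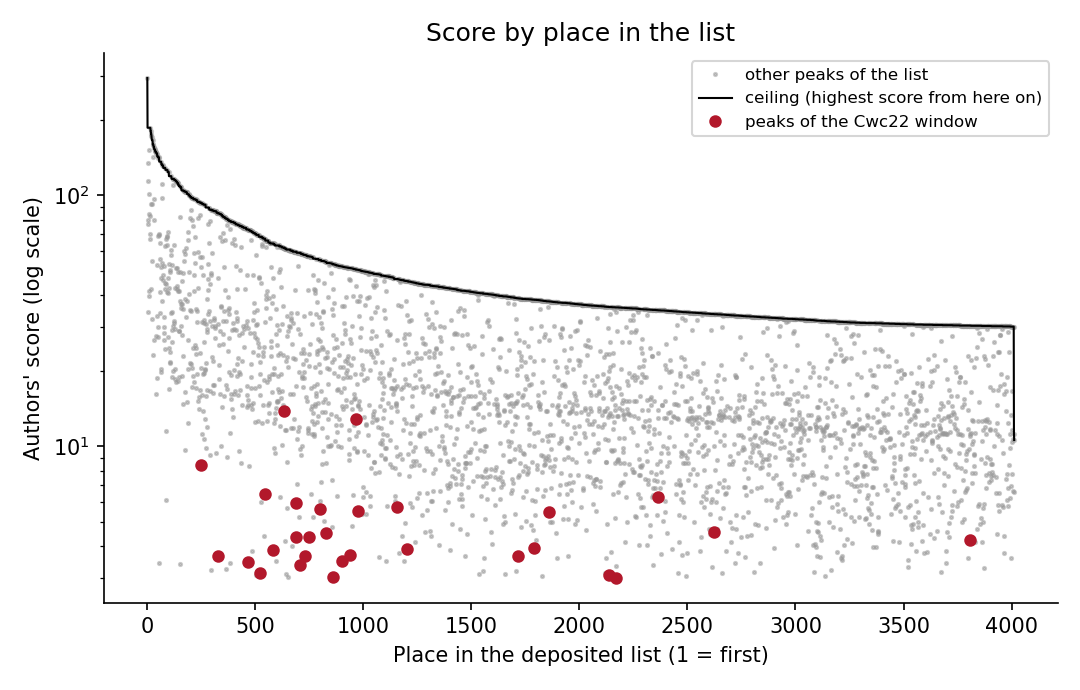
Authors' score on a log scale by place in the deposited list, for all 4012 peaks, with the ceiling as a black line and the 29 peaks of the window in red. The red points gather toward the left, with 19 of them in the first 1003 places, far below the line.

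The other dense runs of the list had narrower peaks and lower coverage. Joining midpoints at most 50 kb apart gave 4 further runs of 5 or more peaks. The 14 peaks on chromosome 9 spread over 182 kb, had midpoints a median of 10.4 kb apart and covered 2.78% of their run, whereas peaks covered 12.2% of the Cwc22 run. Coverage was 5.04% in the 6 peaks on chromosome 14, 5.24% in the 5 on chromosome 16 and 3.21% in the 5 on chromosome 1. Per length, the runs on chromosomes 14 and 16, at 165 and 189.9 peaks per Mb, came near the 190.7 per Mb of the Cwc22 run, but over 36.4 and 26.3 kb. Their median scores were 23.6 and 30.2, and none of their peaks was 500 bp wide.

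Low scores were met again in the run on chromosome 1, with a median of 4.38, and on chromosome Y, where 13 peaks had a median of 5.22. Their peaks were narrower, with medians of 193 and 286 bp, and 1 peak of each was at least 500 bp wide. The 5 peaks on chromosome 1 also stood late in the list, from place 2312 to 3774, whereas 24 of the 29 in the Cwc22 window stood in its first 2006 places. The 13 on chromosome Y had a median place of 1825 and reached a median of 12.6% of the ceiling. With 1 sample and runs chosen for their number of peaks, these differences are given without a test.

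**Figure D4:**
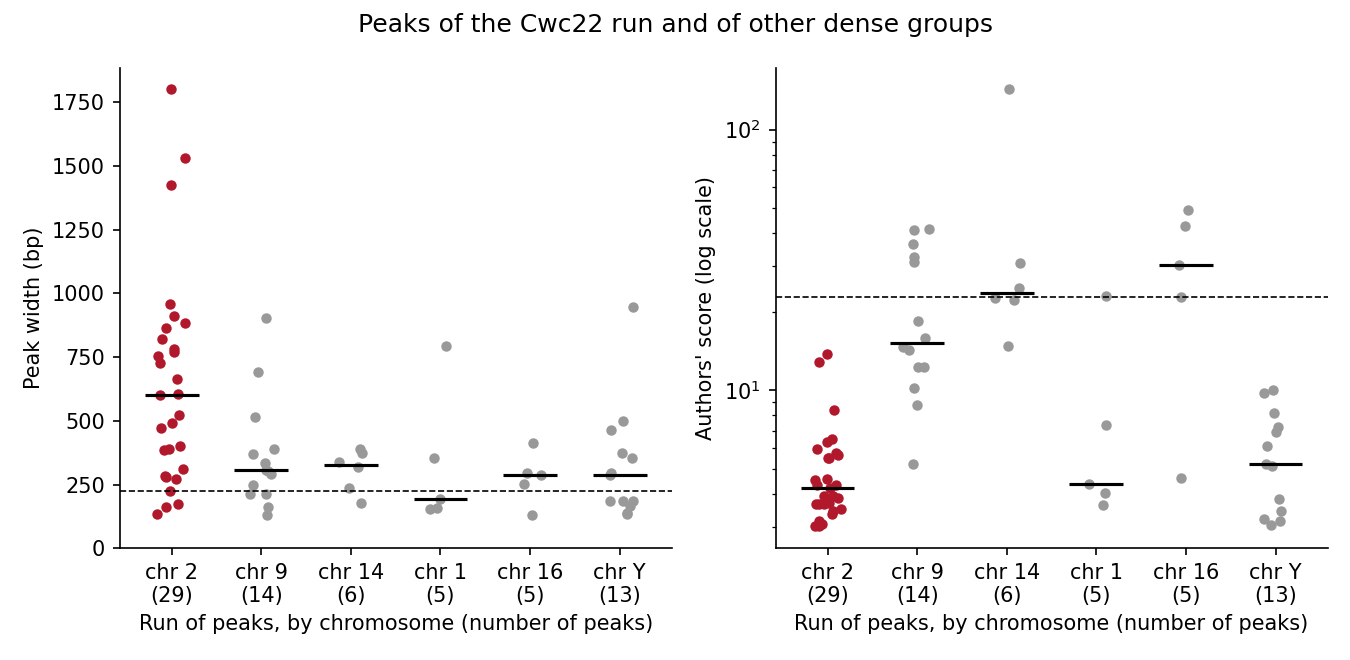
Width in bp (left) and authors' score on a log scale (right) of each peak in the Cwc22 run (red), in the other 4 runs of 5 or more peaks and on chromosome Y (grey). Black bars are medians, dashed lines are the medians of the whole list, and the points are spread sideways at random so that they can be seen. The Cwc22 run alone has a median width above 500 bp, at 602 bp.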

How the data were processed

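Single-end Illumina libraries were prepared, per the labels' protocols, and the titles gave 1 immunoprecipitate and 3 inputs. The authors called peaks with QuEST and deposited the accepted ones, each with a score, per the note accompanying the list. The sources used here do not give what the score was normalized by, the aligner, the thresholds, the version of QuEST or the handling of the inputs. The build is mm9, per the submitters' processing notes. Starts are printed unchanged and could be 0-based, and width is end minus start. Depth is unknown.

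The window, the intervals and the comparisons were chosen with earlier results of these data known. Peaks were placed by their midpoints. No test was run, because 1 sample has no replicates and neighbouring peaks are not independent. Peaks are named by position: the rule took the extremes of width, score and place and every peak in the gene interval, and the rest were added so that all 29 are given. The functions were tested on simulated data with known answers. Alternatives were merged peaks, overlap in place of midpoints, a score of at least 4, the first 2006 places of the list, other bounds, another ceiling and other gaps. Promoter letters came from RefSeq (GRCm38.p6), where Cwc22 matched by symbol. The tools were pandas 2.3.3, numpy 2.4.6 and scipy 1.17.1 under Python 3.11.15, and figures were drawn in matplotlib 3.10.9.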

Additional observations from a re-analysis of the deposited data

How the results depend on the processing

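Of 57 values recomputed under alternatives, 37 stayed within 1.5 times the count or within the 95% binomial order-statistic interval of the median, which treats peaks as independent. Some of the 37 could not have changed. Overlap and wider bounds left every value for the whole window as it was, because no other peak lay near its bounds. Keeping only scores of at least 4 moved most: 15 peaks remained in the window and 4 in the gene interval, with a median score of 5.64, a median gap of 8.42 kb, 9276 bp covered and a median of 10.9% of the ceiling. This follows from how close the scores lie to their lower bound. Widening the bounds by 10 kb placed 16 peaks in the gene interval. The difference in median width, inside minus outside, was 144 bp. It was 450 bp after merging, 265 bp by overlap and -52.5 bp, so reversed, with the wider interval. In settings chosen after seeing the data it was 266 bp without the 2 highest-scoring peaks, 212 bp in the first 2006 places and 26.5 bp with scores of at least 4. That in median score was -0.58, and -0.57, -0.68, -0.83, -0.47, -0.58 and 0.64 in the same order, so it reversed with scores of at least 4. The longest other run held 14 peaks, and 6 with gaps of at most 20 kb. No paired analysis was possible because there was 1 immunoprecipitate and no test.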
